A study of Mus musculus with 8 samples.

Results

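The genes described here encode collagens, laminins and the proteins that assemble with them in basement membranes, in sympathetic ganglia of mouse embryos with reduced *Isl1*. They were chosen by name, as every gene whose symbol is that of a collagen chain or a laminin chain, together with *Nid1*, *Nid2*, *Hspg2*, *Fn1*, *Sparc* and *Serpinh1*. The E11.5 data listed 13506 genes, of which 44 were members, and the E14.5 data 13413 genes, of which 49 were members. In all 50 members were listed, of which 43 were in both tables, 35 were collagens and 8 were laminins. One match, *Col4a3bp*, encodes a ceramide transfer protein and is a member by its name alone. The mm9 annotation holds 61 protein-coding genes that match, and 12 of them were listed in neither table, namely *Col10a1*, *Col13a1*, *Col17a1*, *Col24a1*, *Col4a3*, *Col4a4*, *Col4a6*, *Col6a4*, *Col6a5*, *Lama3*, *Lamb3* and *Lamc3*.

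ISL1 is a LIM homeodomain transcription factor of developing sympathetic neurons. At E11.5 the study compared *Isl1* CKO ganglia (*Wnt1-Cre;Isl1* f/f) with control ganglia (*Wnt1-Cre;Isl1* +/+), both with a *Rosa26-tdTomato* reporter by which non-fluorescent tissue was trimmed away, and the labels call these groups Isl1 knockout and wild type. *Wnt1-Cre* acts in the neural crest lineage, so other cells of a ganglion keep the gene. At E14.5 it compared *Isl1* hypomorphic ganglia (*Isl1* f-neo/f-neo), in which the allele is weakened in all cells, with wildtype ganglia. Each genotype had 2 libraries, each from ganglia pooled over about 10 embryos. The value deposited for a gene is an FPKM (fragments per kilobase of transcript, scaled to the mapped fragments of the library), 1 combined value for both libraries of a genotype. There was therefore no replicate check, no error and no test for any difference given here, and the depth of the libraries is unknown. The stages were normalised separately, so their levels stand side by side only.

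Basement membranes are thin sheets of matrix under epithelia and around vessels, muscle fibres and Schwann cells. Laminins, trimers of an alpha, a beta and a gamma chain, form the first sheet at the cell surface, and type IV collagen forms a covalent network that nidogens and perlecan join to it. Fibrillar collagens lie outside basement membranes in connective tissue. Neural crest cells migrate through fibronectin and laminin, and in grown ganglia glial and endothelial cells rest on basement membranes.

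*Isl1* itself was at 133 FPKM in control and 40.0 FPKM in CKO ganglia at E11.5 (log2 ratio -1.73), and at 162 FPKM in wildtype and 83.1 FPKM in hypomorphic ganglia at E14.5 (log2 ratio -0.96). Erythroid genes held 2.33% of the summed FPKM in control and 11.4% in CKO ganglia at E11.5, and 1.46% and 1.81% in wildtype and hypomorphic ganglia. *Hbb-y*, an embryonic globin, was listed at 0 in CKO and at 7552 FPKM in control ganglia. All other listed globin genes were higher in CKO, such as *Hba-x* (2572 and 53627 FPKM) and *Hbb-bh1* (370 and 6015 FPKM). Whether the 0 stands for a missing value was not tested, and it enters the 11.4% as it is.

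At E11.5 most members were more abundant in *Isl1* CKO than in control ganglia. With ratios taken as log2 of mutant over control after adding 0.1 FPKM to both, which understates differences of low genes, 27 of 44 members (61.4%) were higher by 1.5-fold or more, against 18.9% of all genes, and 12 were higher by 2-fold or more, against 8.42% of all genes. No member was lower by 1.5-fold, against 12.9% of all genes. By any amount 42 members (95.5%) were higher, against 53.9% of all genes. The median log2 ratio of the members was 0.74, with quartiles of 0.45 and 1.09, and that of all genes was 0.052. Summed over members, the level was 1396 FPKM in control and 3043 FPKM in CKO ganglia, or 0.293% and 0.493% of all FPKM (0.300% and 0.557% without erythroid genes). In whole ganglia, more cells of a type and more RNA per cell cannot be told apart. When FPKM values were rescaled to equal sums without erythroid genes, the median of all genes became -0.18, and 17 members were higher and 1, *Col4a3bp*, lower by 1.5-fold, against 12.3% and 22.3% of all genes.

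**Figure D1:**
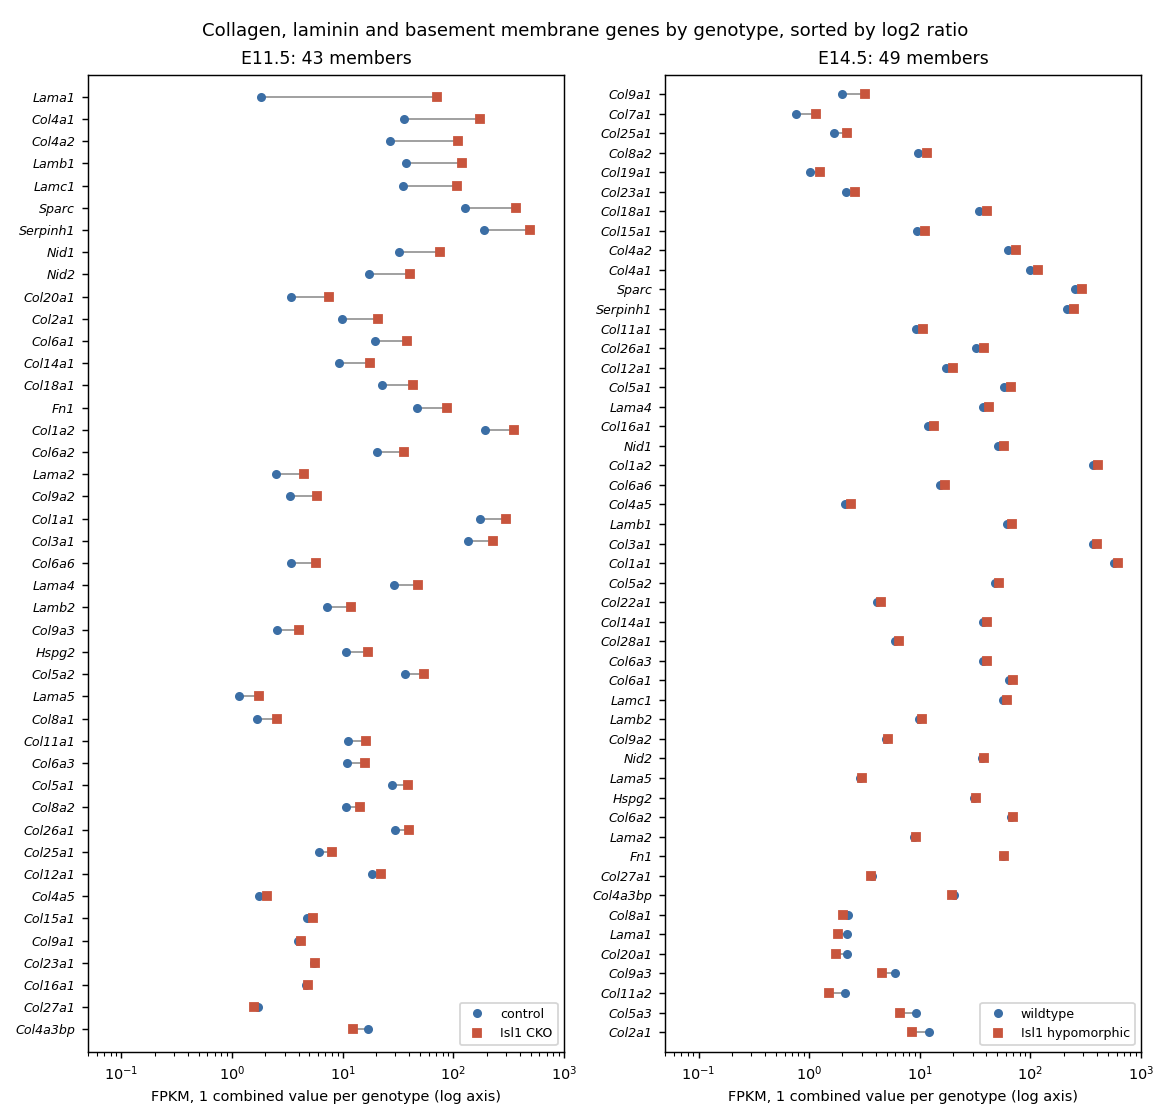
FPKM of each listed member (log axis) in control and *Isl1* CKO ganglia at E11.5 (left, the 43 members also listed at E14.5) and in wildtype and *Isl1* hypomorphic ganglia at E14.5 (right, 49 members), each a single combined value, sorted by log2 ratio. At E11.5 the CKO squares lie right of the control circles for all drawn members but *Col4a3bp* and *Col27a1*, most widely for *Lama1* (1.82 and 70.8 FPKM), and at E14.5 the marks of most genes lie close together.

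The widest gap among the members was that of a laminin chain. *Lama1* (mm9 chromosome 17, 68046605 to 68171985, plus strand) encodes the alpha chain of the laminin of early embryonic basement membranes. It was at 1.82 FPKM in control and 70.8 FPKM in CKO ganglia, 39.0-fold higher (log2 ratio 5.21). *Lama4* (chromosome 10, 38685321 to 38829994), the alpha chain typical of vessels and peripheral nerve, was at 29.1 and 48.2 FPKM (log2 ratio 0.72). The muscle and Schwann cell chain *Lama2* was at 2.52 and 4.49 FPKM, and *Lama5*, the broad epithelial chain, at 1.15 and 1.76 FPKM. Thus *Lama4* made up 84.1% of the summed FPKM of the 4 listed alpha chains in control ganglia and 38.5% in CKO ganglia, while *Lama1* made up 5.25% and 56.5%. The FPKM ratio of *Lama1* to *Lama4* was 0.0623 in control and 1.47 in CKO ganglia.

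*Lamb1* (chromosome 12, 31950099 to 32014509), the common beta chain, was at 37.7 FPKM in control and 119 FPKM in CKO ganglia (log2 ratio 1.66). *Lamc1* (chromosome 1, 155066052 to 155179916), the gamma chain shared by most laminins, was at 35.0 and 108 FPKM (log2 ratio 1.63). The ratio of *Lamb1* to *Lamc1* was 1.08 in control and 1.10 in CKO ganglia. *Lamb2*, the beta chain of synaptic and vascular basement membranes, was at 7.19 and 11.9 FPKM (log2 ratio 0.72), so its ratio to *Lamb1* was 0.190 and 0.0998.

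**Figure D2:**
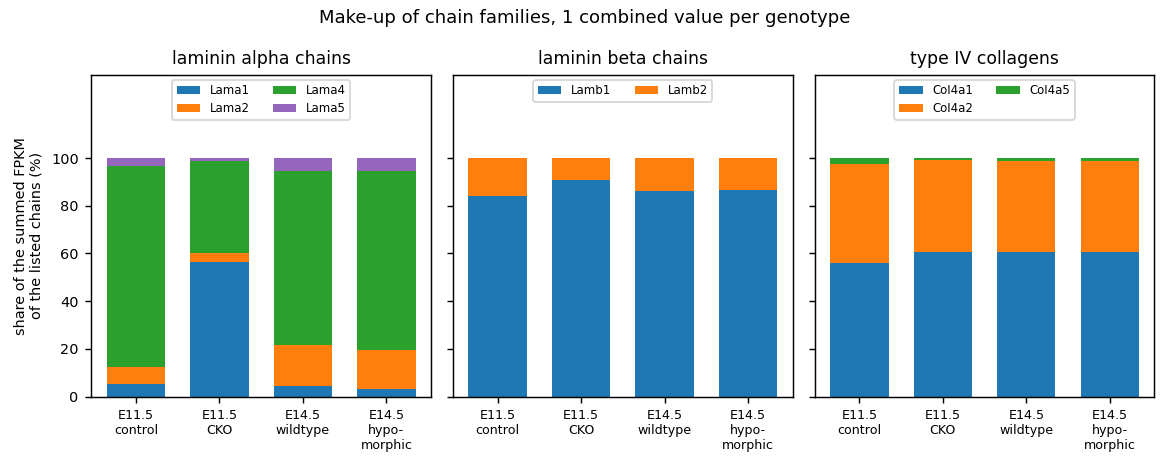
Share (%) of the summed FPKM of the listed laminin alpha chains, laminin beta chains and type IV collagens held by each gene, in control and *Isl1* CKO ganglia at E11.5 and in wildtype and *Isl1* hypomorphic ganglia at E14.5, 1 combined value per genotype. *Lama4* held 84.1% of the alpha chains in E11.5 control and 38.5% in CKO ganglia, and 72.8% and 75.0% in E14.5 wildtype and hypomorphic ganglia.

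*Col4a1* and *Col4a2* encode the chains of the type IV collagen found in nearly all basement membranes. *Col4a1* was at 36.1 FPKM in control and 174 FPKM in CKO ganglia (log2 ratio 2.27), and *Col4a2* at 26.7 and 112 FPKM (log2 ratio 2.06). The ratio of *Col4a1* to *Col4a2* was 1.35 in control and 1.56 in CKO ganglia. The genes lie head to head on chromosome 8, with *Col4a1* on the minus strand from 11198423 to 11312826 and *Col4a2* on the plus strand from 11312805 to 11449287, and in this annotation their ends overlap by 22 bases. Other type IV pairs are built in the same way. *Col4a4* and *Col4a3* are 71 bases apart on chromosome 1 and were not listed. *Col4a6* and *Col4a5* are 1308 bases apart on chromosome X, and of these *Col4a5* was listed, at 1.75 FPKM in control and 2.07 FPKM in CKO ganglia (log2 ratio 0.23). Within the type IV collagens, then, the pair with higher levels in CKO ganglia was the ubiquitous one, and *Col4a5* differed by less than 1.5-fold.

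*Nid1* and *Nid2*, the nidogens that tie laminin to type IV collagen, were higher to the same degree. *Nid1* (chromosome 13, 13529869 to 13604542) was at 32.3 FPKM in control and 76.2 FPKM in CKO ganglia, and *Nid2* (chromosome 14, 20570479 to 20631009) at 17.4 and 40.9 FPKM, with log2 ratios of 1.23 for both. Their ratio was 1.86 in each genotype. *Hspg2*, the gene of the heparan sulphate proteoglycan perlecan, was at 10.8 and 16.9 FPKM (log2 ratio 0.64), a smaller difference than for either nidogen.

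*Sparc* encodes a collagen-binding matricellular protein and *Serpinh1* a chaperone of procollagen in the endoplasmic reticulum. *Sparc* (chromosome 11, 55208002 to 55233582) was at 129 FPKM in control and 369 FPKM in CKO ganglia (log2 ratio 1.52). *Serpinh1* (chromosome 7, 106493885 to 106501740) was the most abundant member in CKO ganglia, at 192 FPKM in control and 490 FPKM in CKO (log2 ratio 1.35). *Fn1*, the gene of fibronectin, was at 46.8 and 87.2 FPKM (log2 ratio 0.90).

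Promoter sequence from RefSeq (GRCm38.p6, windows from 250 bases before to 50 bases after a start) was held for 35 of the 50 members, and for 7 of the 12 members that were at least 2-fold higher at E11.5. Among those 7, *Nid1* and *Serpinh1* are shown because their 250 upstream bases are free of annotated exons in mm9 and hold at least 1 of the 4 motifs searched, chosen with these values known. Each was placed on mm9 by an exact match, and capitals mark a GC box (GGGCGG) or a CCAAT box (CCAAT), read on both strands.
Nid1 (chr13:13529619-13529868, plus strand): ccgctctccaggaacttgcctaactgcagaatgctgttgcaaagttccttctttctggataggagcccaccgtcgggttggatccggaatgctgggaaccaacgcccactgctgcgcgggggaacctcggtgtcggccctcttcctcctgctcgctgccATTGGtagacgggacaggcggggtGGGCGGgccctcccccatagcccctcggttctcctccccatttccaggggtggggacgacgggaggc
Serpinh1 (chr7:106501750-106501999, minus strand): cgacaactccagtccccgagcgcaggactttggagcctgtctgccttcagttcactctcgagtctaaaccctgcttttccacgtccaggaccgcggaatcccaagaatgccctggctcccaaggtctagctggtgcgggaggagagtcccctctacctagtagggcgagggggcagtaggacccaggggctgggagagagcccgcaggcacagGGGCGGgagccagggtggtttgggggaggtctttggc
In the 250 upstream bases of the windows, a GC box was found for 23 of 35 members (65.7%), against 32.7% of 32851 windows of all genes and 42.6% of 21263 windows of protein-coding genes. A member was counted if any of its windows held the motif (38 windows for 35 genes), while the other shares are per single window, so they are not fully alike. A CCAAT box was found for 13 members (37.1%, against 33.8% and 35.4%) and a TATA box (TATAAA) for 2 members (5.71%, against 12.4% and 11.6%). A GATA site (GATA with A or T before it and A or G after it, both strands) was found for 4 members (11.4%, against 26.5% and 23.6%). The full windows of *Col4a1* and *Col4a2* share sequence, though their 250 upstream bases do not overlap, and a match describes letters, not binding.

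The fibrillar collagens of connective tissue were the most abundant collagens and differed less than *Col4a1* and *Col4a2*. *Col1a1* was at 175 FPKM in control and 303 FPKM in CKO ganglia (log2 ratio 0.79), and *Col1a2*, the other chain of type I collagen, at 193 and 352 FPKM (log2 ratio 0.87). *Col3a1*, the gene of the type III collagen of skin and vessels, was at 136 and 229 FPKM (log2 ratio 0.75). Type V collagen helps to start fibrils, and its chains *Col5a1* (28.2 and 38.6 FPKM, log2 ratio 0.45) and *Col5a2* (36.7 and 54.8 FPKM, log2 ratio 0.58) were under 1.5-fold. The cartilage collagens *Col2a1* and *Col11a1* were at 9.90 and 21.0 FPKM (log2 ratio 1.08) and at 11.1 and 16.3 FPKM (log2 ratio 0.54). *Col27a1* was at 1.73 and 1.59 FPKM and was the only collagen listed lower in CKO ganglia. Type I chains and *Col3a1* made up 60.2% of all collagen FPKM in control ganglia and 55.8% in CKO, and *Col4a1* with *Col4a2* held 7.51% and 18.0%.

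Type VI collagen forms beaded filaments at the border of basement membranes. *Col6a1* was at 19.5 FPKM in control and 38.1 FPKM in CKO ganglia (log2 ratio 0.96), *Col6a2* at 20.3 and 35.8 FPKM (0.82), *Col6a3* at 11.02 and 15.9 FPKM (0.53) and *Col6a6* at 3.41 and 5.72 FPKM (0.73). Of the multiplexins, collagens of basement membrane zones that carry heparan or chondroitin sulphate, *Col18a1* was at 22.6 and 43.1 FPKM (0.93), and *Col15a1* at 4.75 and 5.38 FPKM (0.18, or -0.051 after rescaling without erythroid genes). These genes thus differed by less than the type IV pair, and *Col15a1* by the least.

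The FACIT collagens, which sit on the surface of fibrils, were mixed. *Col14a1* was at 9.21 FPKM in control and 17.8 FPKM in CKO ganglia (log2 ratio 0.94), *Col12a1* at 18.3 and 22.4 FPKM (0.29), *Col20a1* at 3.42 and 7.57 FPKM (1.12) and *Col9a2* at 3.33 and 5.84 FPKM (0.79). *Col9a1*, *Col9a3* and *Col16a1* were under 5 FPKM in both genotypes, with log2 ratios of 0.091, 0.66 and 0.044. Among the remaining collagens *Col26a1* was at 29.7 and 39.4 FPKM (0.41), and *Col8a2*, a short-chain collagen of vessel and corneal membranes, at 10.7 and 14.5 FPKM (0.44). The transmembrane collagens *Col23a1* (5.47 and 5.64 FPKM, 0.045, or -0.18 after that rescaling) and *Col25a1* (6.09 and 7.99 FPKM, 0.39) were both under 1.5-fold. *Col8a1* was under 5 FPKM (0.56). *Col4a3bp*, which is no matrix gene, was at 16.9 and 12.5 FPKM (-0.43).

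At E14.5 the members of hypomorphic and wildtype ganglia were close. *Col9a1*, at 1.98 FPKM in wildtype and 3.18 FPKM in hypomorphic ganglia, was the 1 of 49 members (2.04%) higher by 1.5-fold, against 2.89% of all genes, which is near the background. No member was lower by 1.5-fold, against 2.12% of all genes. By any amount 40 members (81.6%) were higher, against 50.7% of all genes, but by small amounts: the median log2 ratio was 0.13, with quartiles of 0.053 and 0.21, and that of all genes was 0.0028. The summed level was 2816 FPKM in wildtype and 3125 FPKM in hypomorphic ganglia, or 0.627% and 0.709% of all FPKM.

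Basement membrane genes at E14.5 differed by little in either direction. *Col4a1* was at 99.3 FPKM in wildtype and 116 FPKM in hypomorphic ganglia (log2 ratio 0.23) and *Col4a2* at 62.7 and 73.4 FPKM (0.23), with a ratio to each other of 1.58 in both. *Lamb1* was at 60.8 and 67.7 FPKM (0.16), *Lamc1* at 56.9 and 61.0 FPKM (0.10), *Lamb2* at 9.90 and 10.4 FPKM (0.073), *Lama4* at 37.2 and 42.0 FPKM (0.17) and *Lama2* at 8.88 and 9.19 FPKM (0.050). *Lama1* was low, at 2.19 and 1.81 FPKM (-0.26). *Lama4* thus led the alpha chains in both genotypes, with *Lama2* next at 17.4% and 16.4% of their sum, and the ratio of *Lama1* to *Lama4* was 0.0588 and 0.0431. *Nid1* was at 51.2 and 57.4 FPKM (0.17), *Nid2* at 36.2 and 37.9 FPKM (0.068) and *Hspg2* at 31.0 and 32.2 FPKM (0.053). *Sparc* was at 251 and 293 FPKM (0.22), *Serpinh1* at 215 and 249 FPKM (0.21) and *Fn1* at 55.9 and 57.7 FPKM (0.044).

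Connective tissue collagens at E14.5 were likewise close. *Col1a1* was the most abundant member, at 571 FPKM in wildtype and 624 FPKM in hypomorphic ganglia (log2 ratio 0.13), followed by *Col1a2* at 366 and 410 FPKM (0.16) and *Col3a1* at 365 and 403 FPKM (0.14). *Col5a1* was at 58.1 and 66.1 FPKM (0.19), *Col5a2* at 47.3 and 51.6 FPKM (0.12) and *Col11a1* at 9.30 and 10.8 FPKM (0.21). The type VI chains had log2 ratios between 0.051 and 0.16, with *Col6a1* at 64.0 and 69.2 FPKM, *Col6a2* at 66.6 and 69.0 FPKM, *Col6a3* at 37.6 and 40.8 FPKM and *Col6a6* at 15.1 and 17.0 FPKM. The multiplexins *Col18a1* (34.0 and 40.6 FPKM) and *Col15a1* (9.45 and 11.2 FPKM) both had a log2 ratio of 0.25. *Col12a1* was at 17.4 and 19.8 FPKM (0.19), *Col14a1* at 36.9 and 40.1 FPKM (0.12), *Col16a1* at 11.9 and 13.4 FPKM (0.17) and *Col9a2* at 4.95 and 5.20 FPKM (0.070). *Col26a1* was at 32.5 and 37.7 FPKM (0.21), *Col8a2* at 9.57 and 11.6 FPKM (0.28) and *Col28a1* at 6.01 and 6.54 FPKM (0.12). All of these genes were higher in hypomorphic ganglia, by log2 ratios of 0.28 or less.

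The 9 members listed lower in hypomorphic ganglia included cartilage collagens. *Col2a1* was at 12.2 FPKM in wildtype and 8.42 FPKM in hypomorphic ganglia (log2 ratio -0.53), *Col9a3* at 5.99 and 4.53 FPKM (-0.39) and *Col11a2* at 2.12 and 1.51 FPKM (-0.46). The other cartilage collagens pointed the other way, as given above for *Col9a1*, *Col9a2* and *Col11a1*. *Col5a3*, a further type V chain, was at 9.16 and 6.55 FPKM (-0.48), and *Col20a1* at 2.19 and 1.74 FPKM (-0.32). *Lama1*, *Col8a1* (-0.13), *Col27a1* (-0.033) and *Col4a3bp* (20.4 and 19.7 FPKM, -0.048) made up the rest. The remaining members stayed under 5 FPKM in both genotypes, with log2 ratios of 0.56 for *Col7a1*, 0.37 for *Col25a1*, 0.27 for *Col19a1*, 0.25 for *Col23a1*, 0.16 for *Col4a5*, 0.12 for *Col22a1* and 0.057 for *Lama5*.

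Of the 43 members in both tables, 36 were higher in the mutant at both stages, 2 were lower at both (*Col4a3bp* and *Col27a1*), and 5 were higher at E11.5 and lower at E14.5 (*Lama1*, *Col2a1*, *Col20a1*, *Col9a3* and *Col8a1*). None was lower at E11.5 and higher at E14.5. As shares, 83.7%, 4.65%, 11.6% and 0% of members fell into these classes, against 27.4%, 23.8%, 25.2% and 23.7% of the 12727 genes in both tables. In 39 members (90.7%) the absolute log2 ratio was larger at E11.5, against 79.9% of all these genes. Stage and allele differ together between these comparisons and cannot be told apart. In the controls, *Lama1* was low at both stages (1.82 and 2.19 FPKM), so its 70.8 FPKM in CKO ganglia stands apart from the other 3 groups.

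**Figure D3:**
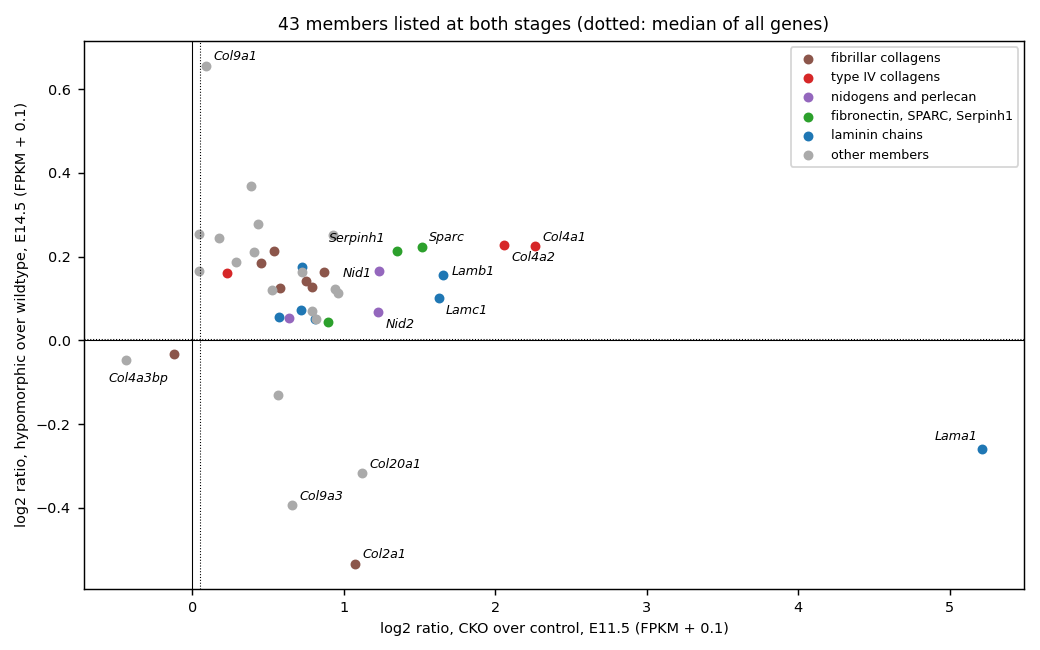
Log2 ratio of FPKM (0.1 added) of the 43 members listed at both stages, CKO over control at E11.5 on the x axis and hypomorphic over wildtype at E14.5 on the y axis, on different scales, with dotted lines at the median of all genes. In the plot 36 members lie right of and above 0, while *Lama1* (5.21 and -0.26), *Col2a1* (1.08 and -0.53), *Col20a1* and *Col9a3* lie in the lower right.

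Genes that make and bind these proteins are given next, as lists by role. Counts in these matrix lists are of genes past 1.5-fold. Of all genes 18.9% were higher and 12.9% lower by that fold at E11.5, and 2.89% and 2.12% at E14.5. Collagen chains are hydroxylated, folded and glycosylated in the endoplasmic reticulum, trimmed outside the cell and crosslinked by lysyl oxidases. Of 26 listed processing genes 19 were higher and 1 lower by 1.5-fold in CKO ganglia (median log2 ratio 0.75). The prolyl 4-hydroxylase subunits *P4ha1* (15.0 FPKM in control and 37.1 FPKM in CKO, log2 ratio 1.299), *P4ha2* (14.3 and 41.6 FPKM, 1.53) and *P4hb* (252 and 421 FPKM, 0.74) were all higher. The prolyl isomerase gene *Ppib* (117 and 200 FPKM, 0.78) and the lysyl oxidase gene *Loxl2* (23.1 and 61.3 FPKM, 1.40) were higher too. At E14.5 none of 25 passed 1.5-fold (median 0.099), and *P4hb* (0.035), *Ppib* (0.023), *Glt25d1*, a collagen galactosyltransferase gene (-0.011), *Plod2*, a lysyl hydroxylase gene (0.31), *Leprel1*, a prolyl 3-hydroxylase gene (0.26), and the chaperone gene *Fkbp10* (0.23) had the log2 ratios given, within a list range of -0.16 to 0.31.

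Receptors were less uniform. The 21 listed matrix receptor genes were integrins, syndecans, discoidin receptors, *Dag1*, *Bcam* and *Gpr126*. Of these 11 were higher and 1 lower by 1.5-fold in CKO ganglia (median log2 ratio 0.60). *Itgb1*, the beta subunit of the collagen and laminin integrins, was at 174 FPKM in control and 198 FPKM in CKO (0.19). *Itga1*, a subunit of a collagen integrin, was lower, at 9.56 and 3.76 FPKM (-1.32). *Itgb3* (1.77 and 5.23 FPKM, 1.51) and *Itgb5* (13.6 and 32.5 FPKM, 1.25), subunits of vitronectin receptors, were higher. The dystroglycan gene *Dag1* (32.6 and 41.9 FPKM, 0.36) and *Sdc3*, a neural syndecan (50.1 and 52.3 FPKM, 0.063), were within 1.5-fold. At E14.5 none of 24 passed (median 0.042), with *Itgb1* at 0.038, *Itga5* at 0.31, *Itgb5* at 0.33, *Sdc2* at 0.30, *Ddr1* at -0.17 and *Sdc3* at -0.21 as log2 ratios.

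Of 17 other basement membrane genes 6 were higher and none lower by 1.5-fold in CKO ganglia (median log2 ratio 0.40). *Tinagl1*, which encodes a laminin-binding matricellular protein, was at 3.47 FPKM in control and 73.0 FPKM in CKO (4.36), a gap between those of *Col4a1* and *Lama1*. *Ntn4*, a laminin-related netrin (2.94 and 7.83 FPKM, 1.39), and *Frem2*, of the Fraser complex (2.14 and 6.03 FPKM, 1.46), were higher. *Fbln1*, a fibulin (97.3 and 79.7 FPKM, -0.29), *Pxdn*, the peroxidase that crosslinks type IV collagen (49.2 and 53.8 FPKM, 0.13), and *Tgfbi* (40.1 and 67.0 FPKM, 0.74) were the most abundant. At E14.5 none of 17 passed (median -0.026), with *Agrn*, the gene of agrin, at 137 and 108 FPKM (-0.35), *Ntn4* at -0.39, *Spock2* at -0.25, *Pxdn* at -0.026 and *Tinagl1* at 0.31.

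Of the interstitial matrix genes 16 of 20 were higher and none lower by 1.5-fold in CKO ganglia (median log2 ratio 0.74). *Postn*, the gene of periostin, was at 184 FPKM in control and 291 FPKM in CKO (0.66), the microfibril genes *Mfap2* at 99.9 and 156 FPKM (0.64) and *Mfap4* at 46.0 and 101 FPKM (1.14), *Thbs1* at 5.17 and 15.7 FPKM (1.58) and *Tnc* at 4.25 and 9.64 FPKM (1.16). At E14.5 none of 20 passed (median 0.16), with *Ogn* (0.47), *Lum* (0.38) and *Dcn* (0.29), small leucine-rich proteoglycans, *Postn* (0.15), *Mfap2* (0.083) and *Eln* (-0.013). Of 17 matrix proteases and inhibitors 8 were higher and none lower by 1.5-fold in CKO ganglia (median 0.58). The gelatinase gene *Mmp2* (48.2 and 83.7 FPKM, 0.80), the inhibitor genes *Timp1* (3.74 and 8.37 FPKM, 1.14), *Timp3* (35.8 and 60.4 FPKM, 0.75) and *Serpine2* (52.0 and 100.2 FPKM, 0.94) and the plasminogen activator gene *Plat* (9.61 and 19.2 FPKM, 0.99) were among them. At E14.5 none of 18 passed (median 0.16), with *Serpine2* at 0.32, *Adamts9* at 0.28, *Timp2* at 0.095, *Mmp2* at -0.14 and *Mmp15* at -0.32.

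Cell type markers also differed at E11.5, and the counts given for each list are of genes past 1.5-fold unless stated. Of all genes 18.9% were higher and 12.9% lower by 1.5-fold, and 53.9% were higher by any amount. Sympathetic neuron markers were lower on balance, with 6 of 16 lower and none higher by 1.5-fold (median log2 ratio -0.39, summed level 3578 FPKM in control and 3134 FPKM in CKO), although *Prph* (0.53), *Tubb3* (0.22) and *Dbh* (0.13) were higher by less than 1.5-fold. Neural crest and glial markers were higher in 13 and lower in 1 of 16 (median 1.04, 465 and 900 FPKM), led by *Fabp7* (90.9 and 208 FPKM) and *Ednrb* (90.0 and 200.3 FPKM). Mesenchyme markers were higher by any amount in 13 of 13 and by 1.5-fold in 7 (median 0.88, 122 and 202 FPKM). *Dcn* (18.5 and 36.8 FPKM, 0.99) passed and *Pdgfra* (22.5 and 33.5 FPKM, 0.57) did not. The mesenchyme genes *Dcn* and *Lum* are also counted among the interstitial matrix genes above. Endothelial markers passed in 3 of 14 (median 0.48, 97.9 and 130 FPKM), a share near that of all genes. *Pecam1* was at 0.18 and *Cldn5* at 0.39. The median of the members, 0.74, lay above the sympathetic neuron, endothelial and skeletal muscle medians and below those of every other marker list.

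Markers chosen for extraembryonic tissue were higher by more in the median. How specific they are to it in these ganglia was not tested. All 11 listed yolk sac markers were also listed at E14.5. The parietal yolk sac secretes a thick basement membrane rich in *Lama1* and type IV collagen products, and all 11 of its listed markers were higher by 1.5-fold in CKO ganglia (median log2 ratio 1.58, summed level 62.6 FPKM in control and 246 FPKM in CKO). Like the other lists, this one was drawn up with earlier results of these data known, so its count is no independent check. Its gene *Plat* is also counted among the proteases above. *Srgn* was at 2.46 and 48.9 FPKM (4.26), *Fst* at 6.35 and 69.6 FPKM (3.43) and *Gata4* at 0.420 and 5.67 FPKM (3.47), while *Cubn* and *Nostrin* were not listed. By qPCR the paper also reports a rise of *Fst*, which it treats as a BMP antagonist, and of *Srgn* in CKO sympathetic ganglia. Its methods state that ganglia of this stage were sorted by FACS before qPCR, a step not named for RNA-seq. Of 10 listed trophoblast and decidua markers 7 were higher and 2 lower (median 3.75, 270 and 227 FPKM). Genes were listed at 1 FPKM or more in either genotype. In this list *Prl8a2*, *Prl7a1*, *Prl3b1*, *Rhox6*, *Rhox9* and *Krt8* were under 1 FPKM in control, so they were listed only through CKO. The same holds for *Gata4* and *Sox17* among the yolk sac markers. The counts and medians of both lists are thus partly set by that filter. The placental prolactin gene *Prl8a2* was at 0.241 and 48.4 FPKM (7.15), and *Krt8* at 0.690 and 22.0 FPKM (4.80). The 2 lower genes, *Hand1* (224 and 85.9 FPKM) and *Peg10* (40.8 and 23.7 FPKM), made up most of the control sum of this list, so its sums follow them. *Hand1* is not specific to trophoblast here, as the paper places it downstream of ISL1 in sympathetic neurons. *Tpbpa*, *Prl3d1*, *Prl2c2*, *Gcm1*, *Syna*, *Synb* and *Dcpp1* were not listed. Erythroid markers were higher in 25 and lower in 2 of 29 (median 3.37, 11079 and 70520 FPKM), led by *Hba-x* (2572 and 53627 FPKM). Macrophage markers were higher in 10 of 11 (median 1.13, 63.6 and 140 FPKM, *C1qb* 1.22, *Tyrobp* 1.01). Skeletal muscle markers were higher in 5 of 11 (median 0.57, 345 and 542 FPKM, *Actc1* 0.75, *Mylpf* 0.46). Cartilage markers were higher in 4 of 4 (median 1.05, 7.69 and 20.2 FPKM, *Matn4* 1.35, *Lect1* 2.50), with *Acan*, *Matn1*, *Matn3*, *Comp* and *Snorc* not listed. The part of these tissues in the members' levels was not tested.

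**Figure D4:**
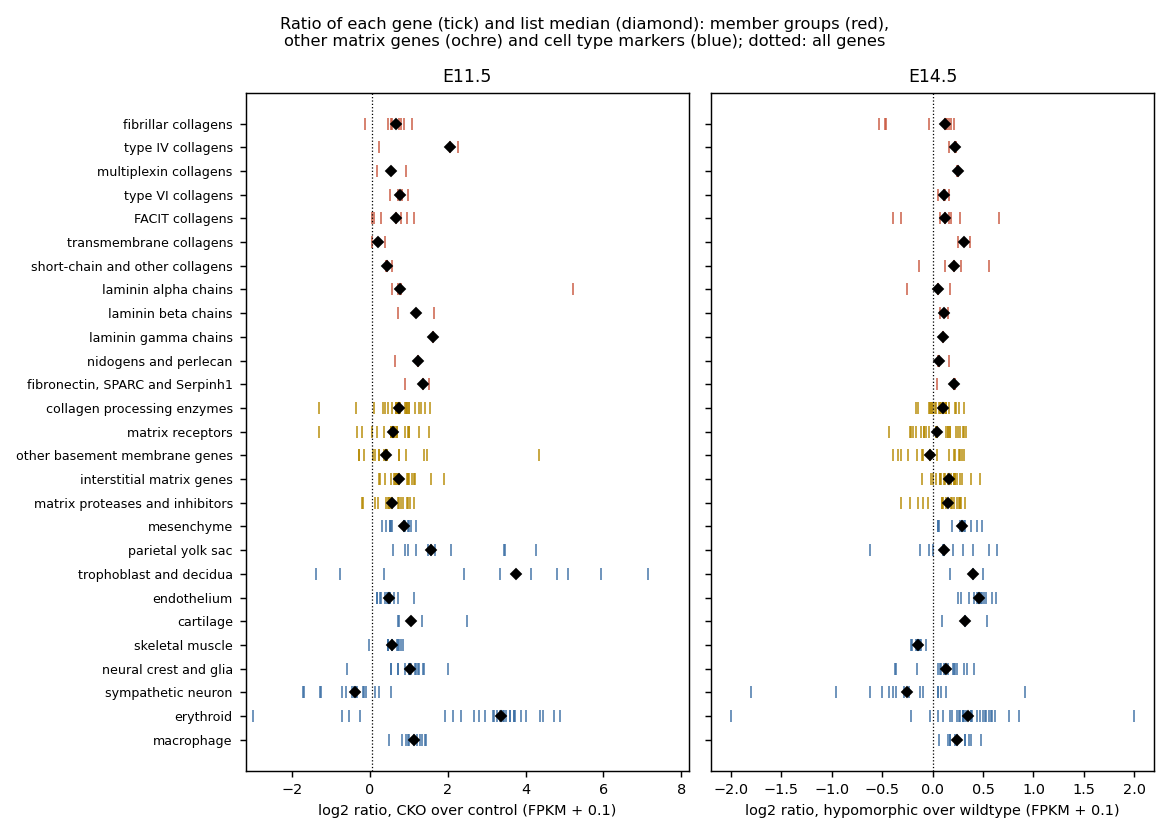
Log2 ratio of FPKM (0.1 added) of each gene (tick) and the list median (diamond) for groups of members (red), other matrix genes (ochre) and cell type markers (blue), CKO over control at E11.5 and hypomorphic over wildtype at E14.5, with the median of all genes dotted and genes outside an axis drawn at its edge. At E11.5 the type IV collagens (median 2.06), parietal yolk sac markers (1.58) and mesenchyme markers (0.88) lie right of the line and sympathetic neuron markers (-0.39) left of it, and at E14.5 all medians lie between -0.26 and 0.46.

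Set against the mesenchyme markers, the members were divided. When log2 ratios at E11.5 were centred on the median of the mesenchyme list, a scaling added after the data had been seen, 7 members were higher by 1.5-fold, against 4.07% of all genes, and 8 were lower, against 67.0% of all genes. By any amount 16 of 44 members were higher on this scale, and 3 of 49 at E14.5. Most genes fell below 0 on it, as the median of all genes was -0.83 at E11.5 and -0.29 at E14.5. Among the 7 were *Lama1* (4.33), *Col4a1* (1.39), *Col4a2* (1.18), *Lamb1* (0.78), *Lamc1* (0.75) and *Sparc* (0.64), mostly laminin and type IV collagen chains. The 8 were *Col4a3bp*, *Col27a1*, *Col16a1*, *Col23a1*, *Col9a1*, *Col15a1*, *Col4a5* and *Col12a1*. The type I chains and *Col3a1* lay near 0 on this scale, slightly below it, at -0.0080 for *Col1a2*, -0.088 for *Col1a1* and -0.13 for *Col3a1*.

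At E14.5 the marker lists were as follows, with counts of genes past 1.5-fold unless stated. Of all genes 2.89% were higher and 2.12% lower by 1.5-fold, and 50.7% were higher by any amount. Mesenchyme markers were higher in 12 of 12, none by 1.5-fold (median log2 ratio 0.29, 149 FPKM in wildtype and 185 FPKM in hypomorphic, *Dcn* 0.29, *Lum* 0.38), and endothelial markers in 14 of 14, with 2 past 1.5-fold (median 0.46, 136 and 188 FPKM, *Cdh5* 0.51, *Pecam1* 0.49). Both medians were above the members' 0.13, as were all others but those of parietal yolk sac, skeletal muscle and sympathetic neuron markers. Parietal yolk sac markers had 1 of 11 higher and 1 lower (median 0.11, 57.5 and 65.4 FPKM, *Dab2* 0.30, *Plat* 0.11), and trophoblast and decidua markers 0 of 3 (median 0.40, 217 and 253 FPKM, *Peg10* 0.40, *Hand1* 0.17). The prolactin genes, *Krt8* and *Krt18* were not listed. Skeletal muscle markers were lower in 10 of 10, none by 1.5-fold (median -0.15, 621 and 562 FPKM, *Mylpf* -0.13, *Actc1* -0.064), and cartilage markers higher in 3 of 3, none by 1.5-fold (median 0.32, 12.4 and 14.4 FPKM, *Lect1* 0.32, *Matn4* 0.091). Neural crest and glial markers had none of 16 past 1.5-fold (median 0.14, 793 and 805 FPKM, *Fabp7* 0.20, *Gfra3* -0.36). Sympathetic neuron markers had 1 higher and 3 lower of 16 (median -0.26, 6800 and 5508 FPKM, *Tubb3* -0.40, *Stmn2* -0.37). Erythroid markers had 5 higher and 1 lower of 30 (median 0.35, 6577 and 7971 FPKM, *Hbb-y* 0.52, *Hbb-b1* 0.20) and macrophage markers 0 of 11 (median 0.25, 77.3 and 92.3 FPKM, *Lyz2* 0.32, *Tyrobp* 0.22).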

How the data were processed

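RNA-seq was carried out on dissected sympathetic ganglia, with 8 libraries in 4 groups (2 per group) taken from the labels. Methods of the study name oligo-dT cDNA, TopHat alignment to mm9 and cuffdiff, while the submitters' processing notes list TopHat 1.3.1, Cuffdiff 1.3.0, Bowtie and the fly build dm3; 92.2% and 92.3% of the listed symbols are in the mouse annotation. The FPKM values were deposited by the authors, 1 combined value per genotype, for genes at 1 FPKM or more in either genotype. Columns of the authors' own fold changes and p-values were not used. Neither depth nor the spread between libraries can be had from these values, so no test was made.

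Members, lists and motifs were chosen with earlier results of these data known. Log2 ratios used a pseudocount of 0.1 and calls a fold of 1.5. Members at 5 FPKM or more in either genotype, the 3 most abundant and 3 most divergent genes (at 5 FPKM or more) of each matrix list, and the 2 most abundant of each marker list are named, and other genes were chosen after their values were seen. Marker lists were mesenchyme, parietal yolk sac, trophoblast and decidua, endothelium, cartilage, skeletal muscle, neural crest and glia, sympathetic neuron, erythroid and macrophage. Alternatives were other pseudocounts, filters, scalings, fold thresholds and member sets. One member counted at E11.5 is not reported here by name and is left out of the figures. Coordinates are from the mm9 annotation. The steps were tested on simulated data, with Python 3.11.15, numpy 2.4.6, pandas 2.3.3 and matplotlib 3.10.9.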

Additional observations from a re-analysis of the deposited data

Results flagged for a closer look

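In 4 members the mutant was higher by 1.5-fold or more at E11.5 and lower, by less than 1.5-fold, at E14.5. The log2 ratio at E11.5 exceeded that at E14.5 by 5.47 for *Lama1*, by 1.61 for *Col2a1*, by 1.44 for *Col20a1* and by 1.05 for *Col9a3*. These differences were not tested, and the stages also differ in the *Isl1* allele.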

How the results depend on the processing

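The tables hold combined values, so no replicate could be left out. No paired analysis was possible because the 2 libraries of a genotype share 1 value. At E11.5 the 27 higher members became 17 on rescaling without erythroid genes, 12 at a threshold of 2-fold and 7 on centring on the mesenchyme list, a choice made after seeing the data. The shares of all genes in these settings were 12.3%, 8.42% and 4.07%. The 0 lower members became 1 under both rescalings and at 1.2-fold, and 8 under that centring, where the median was -0.14. Of all genes 22.3% and 22.1% were lower under the rescalings and 67.0% under that centring. By any amount that centring left 16 of 44 members higher at E11.5, in place of 42, and 3 of 49 at E14.5, in place of 40. It put the median of all genes at -0.83 and -0.29. Of members at 5 FPKM or more that were past 1.5-fold before it, 9 came to lie below 0 at E11.5: *Col6a6* (-0.15), *Col9a2* (-0.086), *Lamb2* (-0.16), *Hspg2* (-0.24), *Col6a2* (-0.062), *Lama4* (-0.15), *Col3a1* (-0.13), *Col1a1* (-0.088) and *Col1a2* (-0.0080). At E14.5 the 1 higher member became 0 with a pseudocount of 1, at 5 FPKM or more, at 2-fold and under the mesenchyme centring, 2 with a pseudocount of 0.01 and under both rescalings, and 5 at 1.2-fold. The 0 lower members became 5 at 1.2-fold and under that centring, where the median was -0.16. Under that centring 1.18% of all genes were higher and 7.47% lower at E14.5, and 3.3% and 3.33% were higher under the rescalings. Shares of all genes at 1.2-fold are not given. Of 639 values of named members under other settings, 583 kept their sign and 56 did not. The mesenchyme centring turned 19 of 35 at E11.5 and 32 of 36 at E14.5. The other 5 turns, among 568 values, were of *Col23a1* on centring on all genes (-0.0067) and of *Col23a1* (-0.18) and *Col15a1* (-0.051 and -0.047) under the rescalings.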
